A study of Mus musculus with 6 samples.

Results

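Ephrins, Slits, netrins and their receptors were examined in newborn mouse olfactory epithelium that had or lacked Atf5, which encodes a bZIP transcription factor. The set comprised 36 named genes: 13 ligands and 23 receptors of 3 guidance systems. Members were the array features carrying exactly 1 of these gene symbols in the platform annotation, and a gene with more than 1 probe set was represented by the brightest on average over the 6 arrays. In this way 35 of the 36 genes were measured among 19937 genes in all. Ephb2 had no feature under its symbol in the annotation used, and its expression was not analysed here. The groups were homozygous Atf5 knockout pups (Atf5-/-) and wild-type pups (Atf5+/+), both C57BL6, taken at postnatal day 0 from crosses of heterozygotes. Each genotype had 3 samples of dissected septa and turbinates, each pooled from 3 pups and hybridised to 1 whole-transcript array. Values are log2 expression levels (RMA), so a difference of 1 is 2-fold. How the Atf5 allele was made is not given in the labels, and the dissected tissue holds bone, cartilage, vessels, glands and glia beside the epithelium.

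These genes encode cues that steer growing axons. Ephrin-A ligands are held in the membrane by a lipid anchor and ephrin-B ligands span it; both bind Eph receptor tyrosine kinases on neighbouring cells, and signals can run in either direction. Slits are secreted proteins that mostly repel axons through Robo receptors, and netrins attract through Dcc or repel through the Unc5 receptors. In the mouse olfactory system, ephrin-A and EphA proteins on sensory axons take part in placing glomeruli, Slit and Robo proteins help to separate dorsal from ventral projections, and netrin with Dcc acts during early axon growth.

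Atf5 was measured at 9.43, 9.44 and 9.50 in knockouts, against 10.54, 10.96 and 10.63 in wild types, and the groups did not overlap. The 6 arrays had medians between 8.67 and 8.72 and correlated at 0.988 to 0.994 over all features. Defining genes of olfactory neurons were measured in every array: Omp, the olfactory marker protein of mature neurons, lay between 9.06 and 9.21 in knockouts, against 11.00 to 11.63 in wild types. The mean of 8 skeletal muscle genes was 9.95, 10.04 and 10.28 in knockouts, against 8.91, 10.04 and 9.88 in wild types, so that wild-type replicate 1 stood apart. A log2 change is knockout minus wild type, and "was at" before a signed value or a bracketed interval gives it. A gene is said to rise or fall where the adjusted p of limma (Benjamini-Hochberg over 19937 genes) was under 0.05.

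The question of the comparison is which guidance transcripts differ when Atf5 is missing. Efna3, Epha5 and Slit1 fell in the knockout: 1 ephrin-A ligand by 1.81-fold, 1 EphA receptor by 1.41-fold and 1 Slit by 1.28-fold. No member rose, against 0.502% of all genes, and 32 of 35 did not pass. The 3 lower members are 8.57% of those measured, against 3.24% of all genes that were lower by the same test. At an unadjusted p under 0.05, limma gave 5 members lower (14.3%, against 8.28% of all genes) and 7 higher (20%, against 7.82%). With replicate number added to the model as a block, there were 3 lower and 4 higher members, the higher ones being Epha3, Slit3, Dcc and Unc5c. These 4 are 11.4% of the members, against 2.11% of all genes higher in that fit, and the 3 lower ones stand against 4.46% of all genes. The median log2 change was 0.06 over the 35 members and 0.01 over all genes, and 19 members (54.3%) lay above 0 against 53% of all genes. Because the tissue is a mixture, fewer cells of a type and less RNA per cell cannot be told apart.

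**Figure D1:**
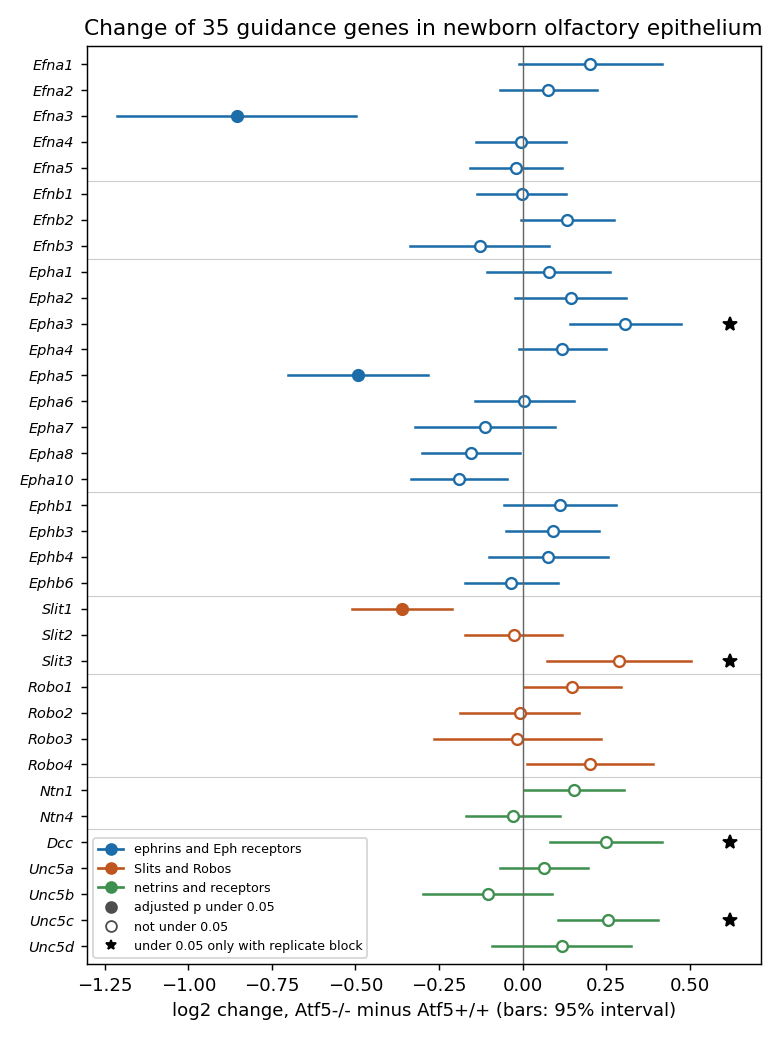
Log2 change, Atf5-/- minus Atf5+/+, of 35 guidance genes (points) with 95% intervals (bars), grouped by role. Filled points passed limma and lie below 0 for Efna3, Epha5 and Slit1; stars mark Epha3, Slit3, Dcc and Unc5c, which passed with the replicate block and not without it.

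**Figure D2:**
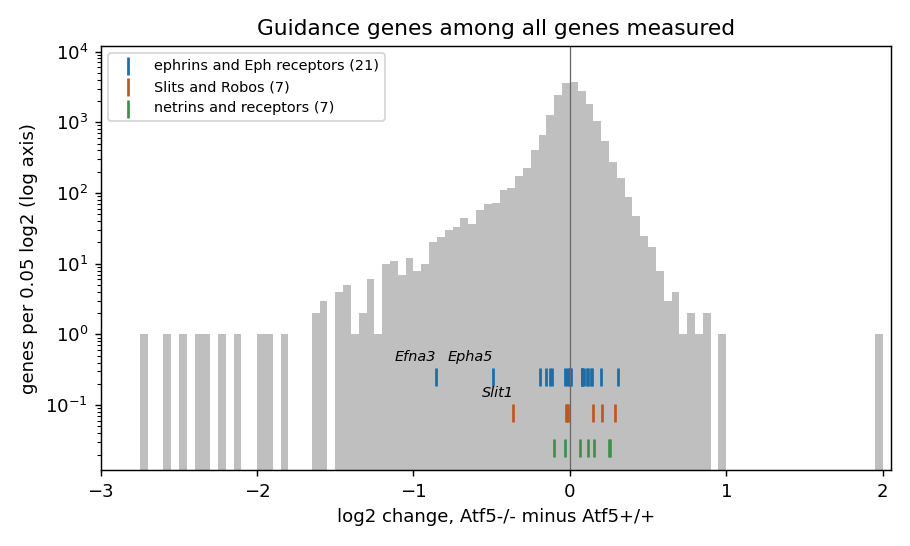
Histogram of the log2 change of all 19937 genes (grey; the vertical axis is logarithmic) with the guidance genes of each system as ticks. Efna3, Epha5 and Slit1 lie left of the main body of the distribution, and no member lies above 0.31.

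Among the ephrin-A ligands, Efna3, the gene of ephrin-A3, stood at 10.17, 10.07 and 9.54 in knockouts, against 11.00, 10.69 and 10.65 in wild types. All knockout arrays lay below all wild-type arrays, with knockout replicate 3 the lowest. The mean was 9.93 ± 0.34 in knockouts, against 10.78 ± 0.19 in wild types (SD, n = 3 each), a log2 change of -0.85 (SE 0.16, adjusted p = 0.0184 by limma) or 1.81-fold lower (95% interval 1.41 to 2.32). Without wild-type replicate 1 the change was -0.75 and did not pass (adjusted p = 0.0718 by limma).

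The other 4 ephrin-A genes did not pass. Efna5, the gene of ephrin-A5, which acts with ephrin-A3 in olfactory axon targeting, was at 11.00, 11.02 and 10.91 in knockouts, against 10.96, 11.02 and 11.02 in wild types. These groups overlapped, and the change of -0.02 had a 95% interval from -0.16 to 0.12. Efna4 was at -0.00 (interval -0.14 to 0.13) and Efna2 at 0.08 (-0.07 to 0.22). Efna1 was at 9.57, 9.59 and 9.59 in knockouts, against 9.15, 9.54 and 9.44 in wild types; the groups did not overlap, yet the change of 0.20 (-0.01 to 0.42) did not pass (adjusted p = 0.341 by limma).

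Efna1, Efna3 and Efna4 follow each other on chromosome 3 with no other protein-coding gene between them in RefSeq. The within-array log2 ratio of Efna1 over Efna3 was higher in each knockout than in each wild type, by 1.06 on average, and that of Efna4 over Efna3 by 0.85. The ratios were formed after the values were seen and were not tested. By construction the average change of each ratio is the difference of 2 log2 changes already given, so it adds no support to them. The separation of Efna1 over Efna3 likewise follows from the groups of both genes lying apart in opposite directions. These changes were 0.20 for Efna1, -0.85 for Efna3 and -0.00 for Efna4.

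Upstream sequences of Efna3, of its neighbour Efna1 and of the lower receptor gene Epha5 are shown, so that the promoters of 2 genes that fell can be set beside that of a gene that did not pass. They are the 250 bases before a transcript start in RefSeq (GRCm38.p6), 5′ to 3′ on the gene's own strand, which is the minus strand for all 3 genes. Efna3 has 2 starts in the table, and for Efna1 1 of its 2 starts is printed. Capitals mark the letters of a searched motif.
Efna3, chr3:89322940-89323189: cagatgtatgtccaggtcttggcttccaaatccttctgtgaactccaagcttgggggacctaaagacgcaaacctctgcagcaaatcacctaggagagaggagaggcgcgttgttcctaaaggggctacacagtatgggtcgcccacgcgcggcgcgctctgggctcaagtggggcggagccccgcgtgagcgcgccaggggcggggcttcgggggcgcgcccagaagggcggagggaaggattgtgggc
Efna3, second start, chr3:89321769-89322018: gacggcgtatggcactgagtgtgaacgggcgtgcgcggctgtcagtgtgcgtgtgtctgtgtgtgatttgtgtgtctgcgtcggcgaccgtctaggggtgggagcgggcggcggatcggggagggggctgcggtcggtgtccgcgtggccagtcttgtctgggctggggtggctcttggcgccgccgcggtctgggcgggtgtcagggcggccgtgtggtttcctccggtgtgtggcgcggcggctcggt
Efna1, chr3:89280952-89281201: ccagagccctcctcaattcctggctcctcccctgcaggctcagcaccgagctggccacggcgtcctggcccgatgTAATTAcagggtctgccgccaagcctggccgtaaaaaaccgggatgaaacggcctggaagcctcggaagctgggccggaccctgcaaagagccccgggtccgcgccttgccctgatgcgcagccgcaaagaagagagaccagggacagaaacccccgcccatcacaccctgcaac
Epha5, chr5:84417383-84417632: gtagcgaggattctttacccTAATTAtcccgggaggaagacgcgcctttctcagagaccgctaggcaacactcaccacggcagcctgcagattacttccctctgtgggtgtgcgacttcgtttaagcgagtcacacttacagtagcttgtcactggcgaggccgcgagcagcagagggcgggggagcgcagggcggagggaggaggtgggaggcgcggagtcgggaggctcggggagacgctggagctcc
In all, 4 motifs were searched on both strands of these windows in 32851 starts of all genes. The EBF palindrome, TCCC and GGGA with 2 bases between them, known from promoters of olfactory neuron genes, was in 0.779% of all starts, the cyclic AMP response element TGACGTCA in 1.55%, the composite element TGATGNAA (TTNCATCA on the other strand), bound by ATF4 with C/EBP partners, in 3.45%, and the homeodomain core TAATTA in 4.84%. Of 36 starts of 31 members, 1 held the first (Robo3), 1 the second (Epha2), 0 the composite element and 3 the homeodomain core (Efna1, Epha5 and Robo3). The core began at position -175 in Efna1 and -230 in Epha5, counted from the transcript start. The window of the other Efna1 start, chr3:89279646-89279895, held no searched motif, and none was found in either Efna3 window. The Efna3 windows held 63.6% and 70.4% G and C, against a median of 52.4% over all starts, and 19 and 31 CpG dinucleotides, against a median of 6. This was not particular to Efna3. The windows of Efna1, which did not pass, held 64.4% and 64.8% with 18 and 16 CpG dinucleotides. That of Epha5 held 62.4% with 20. The 31 members include Ephb2, whose expression was not measured. Slit1, Dcc, Efnb3, Ntn1 and Unc5d had no upstream entry and were not searched. A match is a description of the letters only.

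None of the 3 ephrin-B ligand genes passed. Efnb1, which is X-linked, was at -0.00 (95% interval -0.14 to 0.13). Efnb2, also known as an arterial marker, was at 9.96, 10.09 and 9.99 in knockouts, against 9.85, 9.89 and 9.89 in wild types. Its groups did not overlap, and the change of 0.13 did not pass (adjusted p = 0.328 by limma). Efnb3 was at -0.13 (-0.34 to 0.08), with knockout replicate 2 the lowest array at 8.50.

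Of 9 EphA receptor genes, 1 fell and 8 did not pass. Epha5, a receptor whose level varies among olfactory axons, stood at 8.73, 8.54 and 8.41 in knockouts, against 9.12, 8.92 and 9.11 in wild types. The groups were apart, and knockout replicate 3, the lowest for Efna3, was also the lowest here. The mean was 8.56 ± 0.16 in knockouts, against 9.05 ± 0.11 in wild types (SD, n = 3 each), a change of -0.49 (SE 0.09, adjusted p = 0.0198 by limma) or 1.41-fold lower (1.22 to 1.63). With 1 array dropped at a time, it still passed when that array was knockout replicate 1 or wild-type replicate 2, and the other 4 fits gave adjusted p = 0.0508 to 0.0873 by limma, with changes between -0.48 and -0.42.

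Epha3, a receptor that binds ephrin-A5, lay on the other side of 0. Its arrays were at 9.98, 9.89 and 9.74 in knockouts, against 9.59, 9.58 and 9.52 in wild types, with no overlap. The change of 0.31 (SE 0.07) did not pass by limma (adjusted p = 0.0577), and passed with the replicate block (adjusted p = 0.0243). Within the same replicate number, knockout minus wild type was 0.39, 0.32 and 0.21. The log2 ratio of Epha3 over Epha5 was higher in each knockout than in each wild type, by 0.80 on average, a description formed after the values were seen.

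The remaining EphA receptors had smaller values. Epha10, whose kinase domain is thought to be inactive, was at -0.19 (-0.33 to -0.05) and Epha8 at -0.15 (-0.30 to -0.01); both had groups apart, with knockout arrays lower, and neither passed (adjusted p = 0.169 and 0.283 by limma). Epha4, which binds ephrins of both classes, was at 0.12 (-0.01 to 0.25) and had knockout arrays of 9.70, 9.70 and 9.68 above wild-type arrays of 9.56, 9.54 and 9.62. Epha2, an epithelial receptor, was at 0.14, Epha1 at 0.08 and Epha7 at -0.11. Epha6 was at 0.00 and was among the 2 members below the 30th percentile of gene means, the other being Robo3. For Epha10 a further probe set gave -0.07 where the one used gave -0.19.

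None of the 4 measured EphB receptor genes passed, and their changes lay between -0.03 and 0.11. Ephb1 was at 0.11 (-0.06 to 0.28), while its other probe set gave -0.03. Ephb3 was at 0.09 (-0.05 to 0.23), Ephb4, the venous partner of ephrin-B2, at 0.08 (-0.10 to 0.25), and Ephb6, a receptor without kinase activity, at -0.03 (-0.17 to 0.11). All 4 intervals lie within 0.5 of 0 on the log2 scale.

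Of the 3 Slit genes 1 fell and 2 did not pass. Slit1 stood at 9.10, 9.16 and 9.23 in knockouts, against 9.56, 9.56 and 9.44 in wild types, with no overlap between the groups. The mean was 9.16 ± 0.07 in knockouts, against 9.52 ± 0.07 in wild types (SD, n = 3 each), a change of -0.36 (SE 0.07, adjusted p = 0.0177 by limma) or 1.28-fold lower (1.16 to 1.42). This was the smallest of the 3 decreases. With 1 array dropped at a time, it still passed only without replicate 3 of either genotype, and the other 4 fits gave adjusted p = 0.0615 to 0.0814 by limma, with changes between -0.36 and -0.33.

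Slit2 was at 11.17, 11.21 and 11.09 in knockouts, against 11.18, 11.24 and 11.12 in wild types. The groups overlapped, and the change was -0.03 (-0.17 to 0.12). Slit3, made by mesenchyme among other tissues, was at 10.08, 10.10 and 10.30 in knockouts, against 9.77, 9.79 and 10.06 in wild types. In both genotypes replicate 3 was the highest, and the lowest knockout array lay just above the highest wild-type array. The change of 0.29 (SE 0.10) did not pass by limma (adjusted p = 0.167), and passed with the replicate block (adjusted p = 0.0236), where knockout minus wild type was 0.31, 0.32 and 0.24 for the 3 numbers. The log2 ratio of Slit3 over Slit1 was higher in each knockout than in each wild type, by 0.65 on average, again formed after the values were seen. Here too the separation follows from the groups of both genes lying apart in opposite directions.

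No Robo receptor gene passed. Robo2, the Slit receptor of olfactory sensory axons, was at 10.80, 10.96 and 10.79 in knockouts, against 10.97, 10.76 and 10.84 in wild types. The groups overlapped, and the 95% interval of the change, -0.19 to 0.17 around -0.01, holds no change larger than 1.14-fold. Robo1 was at 11.26, 11.43 and 11.36 in knockouts, against 11.21, 11.22 and 11.18 in wild types; the groups were apart and the change was 0.15 (adjusted p = 0.298 by limma). Robo3, a receptor of commissural axons, was at -0.02 with the widest interval of the family (-0.27 to 0.23).

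Robo4, an endothelial receptor, was at 9.49, 9.61 and 9.77 in knockouts, against 9.49, 9.32 and 9.46 in wild types, a change of 0.20 that did not pass (adjusted p = 0.274 by limma). Of 10 endothelial markers, 9 lay above 0 (90%, against 53% of all genes) and 0 passed by limma. At an unadjusted p under 0.05, limma gave 5 of them higher (50%, against 7.82% of all genes). The mean of the 10 markers was 10.23, 10.17 and 10.23 in knockouts, against 9.97, 10.13 and 10.06 in wild types. Cdh5, the cadherin of endothelial junctions, was at 0.23 and Pecam1 at 0.21. The part of endothelial cells in the values of Robo4, Efnb2 and Ephb4 was not tested.

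**Figure D3:**
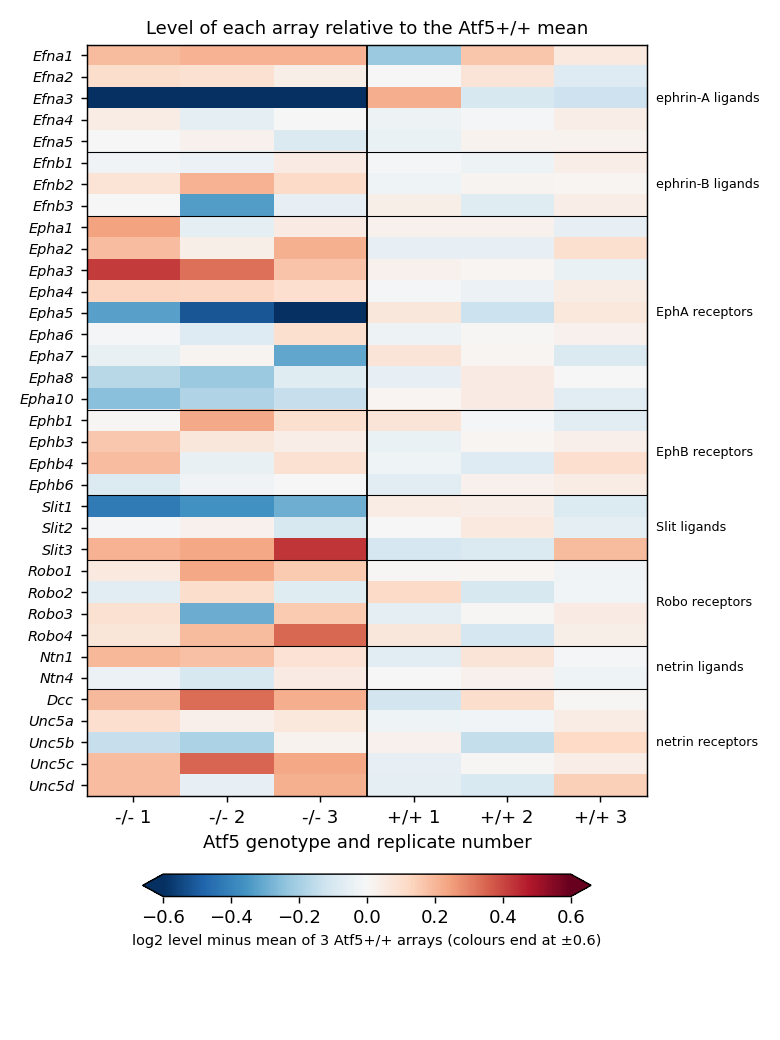
Log2 level of each guidance gene on each array minus the mean of the 3 Atf5+/+ arrays, grouped by role, with Atf5-/- arrays left of Atf5+/+ arrays. Efna3 reaches the blue end of the scale at -0.6 in all knockout arrays; Epha5 and Slit1 are blue in all 3, and Epha3, Slit3, Dcc and Unc5c are red in all 3.

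In the netrin system no gene passed by limma, and at an unadjusted p under 0.05 there were 3 higher (42.9%, against 7.82% of all genes) and 0 lower (against 8.28%) of 7. The median change of the 7 genes was 0.12, against 0.00 for the 21 genes of the ephrin system and -0.01 for the 7 of the Slit system. At the same unadjusted threshold the Slit system also had 3 of 7 higher (42.9%), with 1 lower (14.3%). The ephrin system had 1 of 21 higher (4.76%) and 4 lower (19%). Ntn1, the attractant that names the family, was at 9.57, 9.55 and 9.46 in knockouts, against 9.30, 9.45 and 9.36 in wild types. The groups were apart by a small margin, and the change was 0.15 (0.01 to 0.30; adjusted p = 0.292 by limma). Ntn4, a netrin of basement membranes, was at -0.03 (-0.17 to 0.11).

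Dcc, the attractive netrin receptor, was at 8.98, 9.12 and 9.00 in knockouts, against 8.67, 8.88 and 8.79 in wild types, with no overlap. Its change of 0.25 (SE 0.07) did not pass by limma (adjusted p = 0.121), and passed with the replicate block (adjusted p = 0.0433). Unc5c, a repulsive receptor, was at 9.23, 9.39 and 9.27 in knockouts, against 9.00, 9.05 and 9.08 in wild types, also without overlap. Its change of 0.26 (SE 0.07) likewise did not pass (adjusted p = 0.0782 by limma) and passed with the block (adjusted p = 0.0473). Knockout minus wild type within a number was 0.31, 0.23 and 0.21 for Dcc and 0.23, 0.34 and 0.19 for Unc5c. The shared sign of the 3 differences in each gene follows from groups without overlap and adds no support. The other repulsive receptors did not pass: Unc5a was at 0.06, Unc5b at -0.10 and Unc5d at 0.12, the last with a further probe set at -0.03.

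**Figure D4:**
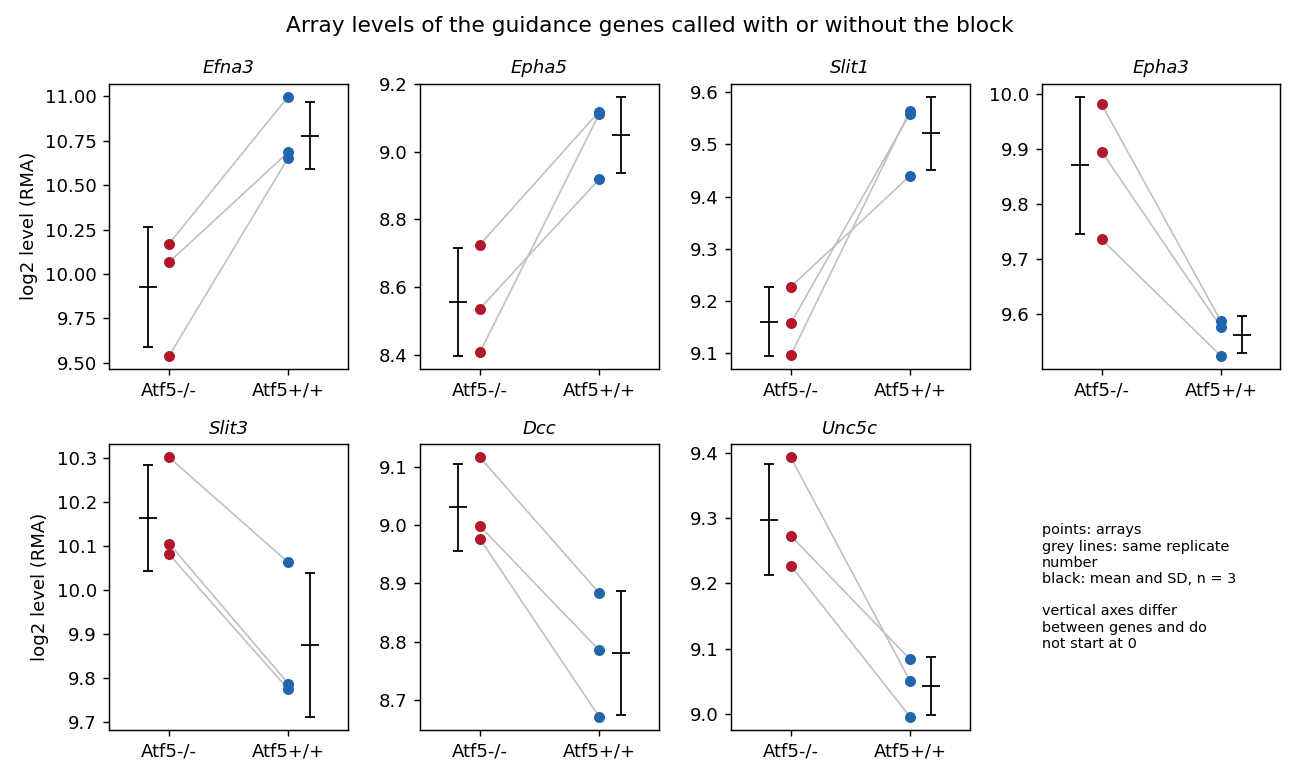
Log2 level on each array (points) with the mean and SD of 3 arrays per genotype; grey lines join arrays with the same replicate number. Efna3, Epha5 and Slit1 lie lower in every Atf5-/- array, and Epha3, Slit3, Dcc and Unc5c higher, than in any Atf5+/+ array.

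Ligands and receptors were also counted apart. Of 13 ligand genes, 2 fell, 0 rose by limma (2 higher and 2 lower at an unadjusted p under 0.05, 15.4% each way) and 5 lay above 0, with a median of -0.00. Of 22 measured receptor genes, 1 fell, 0 rose by limma (5 higher and 3 lower at an unadjusted p under 0.05, or 22.7% and 13.6%) and 14 lay above 0, with a median of 0.08. Of all genes, 7.82% were higher and 8.28% lower at that unadjusted threshold. The genes that fell are 15.4% of the ligands and 4.55% of the receptors, against 3.24% of all genes. Of all genes 0.502% rose and 53% lay above 0. Groups without overlap were found for 5 members with the knockout lower (14.3%, against 10.3% of all genes) and for 11 with the knockout higher (31.4%, against 10.8%). The 11 were Efna1, Efnb2, Epha3, Epha4, Ephb3, Slit3, Robo1, Robo4, Ntn1, Dcc and Unc5c. These counts describe the set and no test was made of it. In 31 of 35 members the 95% interval lay within 0.5 of 0 on the log2 scale, the exceptions being Efna3, Epha5, Slit1 and Slit3.

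Genes known to act with these ligands and receptors were mostly below the threshold. Of 54 measured partners, 2 fell, 0 rose by limma (9 higher and 4 lower at an unadjusted p under 0.05, or 16.7% and 7.41%, against 7.82% and 8.28% of all genes) and 52 did not pass, with a median of 0.03; those that fell are 3.7% of the partners, against 3.24% of all genes. Flrt1, a membrane protein of the family that binds Unc5 receptors and latrophilins, was at 10.41, 10.24 and 10.12 in knockouts, against 10.93, 10.68 and 10.76 in wild types. The change was -0.54 (SE 0.09, adjusted p = 0.013 by limma), with groups apart; the call ended without knockout replicate 2 (adjusted p = 0.0542 by limma) or wild-type replicate 1 (0.0502). Anks1b, a scaffold with ankyrin repeats and SAM domains, was at 8.36, 8.32 and 8.27 in knockouts, against 8.72, 8.69 and 8.70 in wild types. It changed by -0.39 (SE 0.06, adjusted p = 0.00698 by limma) and passed without any 1 array (highest adjusted p = 0.0366 by limma).

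Of 20 measured partners of Eph signalling 1 fell, Anks1b, while Ngef, an exchange factor downstream of EphA receptors, was at -0.01 and Vav2, another exchange factor, at 0.07. Of 16 Slit and Robo partners none passed by limma, with Srgap1 at -0.08 and Srgap2 at 0.03, both GTPase-activating proteins that bind Robo tails. Of 18 netrin partners 1 fell, Flrt1, while Neo1, a receptor related to Dcc, was at 0.11 and Dscam, a further netrin receptor, at -0.03.

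Markers of mature neurons, and some of immature neurons, moved with the 3 members that fell. Of 12 genes of mature olfactory neurons 11 fell (91.7%, against 3.24% of all genes). The mean of the 12 was 9.18, 9.29 and 9.17 in knockouts, against 11.02, 10.71 and 10.82 in wild types. Of 10 genes of immature neurons 3 fell (30%) and 7 did not pass, with changes from -0.68 to 0.02. The means of the 10 were 11.07, 11.13 and 10.98 in knockouts, against 11.36, 11.31 and 11.24 in wild types. Gap43, a growth cone protein, changed by -0.43. Genes of neuronal precursors had 0 of 7 past the test by limma and a median of 0.05. The median log2 change was -1.61 over the mature list and -0.23 over the immature list. Among mesenchymal genes 1 of 7 rose (14.3%, against 0.502% of all genes). All 7 lay above 0, against 53% of all genes. Their means were 11.47, 11.53 and 11.59 in knockouts, against 11.30, 11.37 and 11.40 in wild types. That was the direction of Epha3, Slit3, Dcc and Unc5c, and it was not particular to mesenchyme. Above 0 lay 8 of 8 skeletal muscle, 9 of 10 endothelial, 6 of 7 myeloid and 6 of 7 smooth muscle and pericyte genes. Sustentacular genes had 1 of 8 above 0, and horizontal basal cell and motile cilia genes 3 of 6 each. Of 3 enamel genes 2 fell (66.7%, against 3.24% of all genes). Their means were 8.60, 7.98 and 9.02 in knockouts, against 11.61, 11.35 and 9.41 in wild types, and Enam changed by -2.47. The part of these cell types in the changes of the guidance genes was not tested.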

How the data were processed

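RNA of 6 pooled samples was measured on 1-colour whole-transcript arrays. The authors deposited log2 expression values made with RMA, with affy and limma also named, per the submitters' processing notes; no versions are given. The values ran from 4.5 to 14.7, and the base of the logarithm, not given in the sources used here, was taken as 2. RMA, as generally defined, brings the arrays to nearly 1 distribution and so hides a shift common to most transcripts. Of 34760 rows, 21640 had 1 gene symbol, which gave 19937 genes. The genotypes were compared in limma 3.58.1 (lmFit, eBayes, no covariate, no trend) in R 4.3.3, 2-sided, Benjamini-Hochberg adjusted over all genes; SE is the moderated standard error and intervals are at 95%. No filter on low values was applied: 33 of 35 members exceeded the 30th percentile of gene means and 21 the median. The number of arrays limits the precision.

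Groups and replicate numbers came from the titles, which describe biological replicates. Deviations from the group means correlated at 0.295, 0.122 and 0.234 for arrays of the same number, which exceeds the minimum of 0.1. By rule the numbers were therefore taken as pairs in an alternative fit, the replicate block. The basis for pairing was found in the data and not in the labels. A rise or fall is called from the fit without the block. Blocked values are printed where they changed the call of a member, and for Gad2 among the markers. The block also changed calls of other markers, whose blocked values are not printed. The members and lists were chosen with earlier results of these data known. Named genes were Atf5, all members, and of each partner list those that passed (up to 4) and the first 2 measured. Among the markers they were Omp, Gap43, Cdh5, Pecam1 and Enam. Neighbouring genes on the chromosome, and the markers Slc17a6, Cdhr1 and Gad2, were added after the values were seen. Of 15 marker lists, those that moved with a result are given in the text and the others beside the further observations. The test procedure was tested on simulated data. Alternatives were the replicate block, quantile normalization, median centring, filters on low means, the mean of probe sets, a trended and robust prior, and leaving out each array. Upstream sequences are from RefSeq (GRCm38.p6), in which 31 members had an entry.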

Additional observations from a re-analysis of the deposited data

How the results depend on the processing

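Of the 35 members, 28 stayed on the same side of the threshold under all alternatives run for them. With the replicate block 421 genes were higher, among them 4 members (Epha3, Slit3, Dcc and Unc5c); the block changed no other call of a member. After quantile normalization 1 member was higher, Epha3 (adjusted p = 0.0495 by limma), which also passed without knockout replicate 3 (0.0243). Leaving out genes under the 30th percentile gave 358 lower genes; leaving out those under the median gave 226 lower and 60 higher genes and 1 lower partner, by construction among fewer genes (Epha5 and Anks1b were not in that fit). With 1 array left out, there were 27 to 127 higher and 383 to 584 lower genes, 0 to 1 higher and 0 to 2 lower members, and 0 to 1 higher and 1 to 2 lower partners. No member passed in the lower direction without wild-type replicate 1, and 1 did without knockout replicate 2. The cause of these losses was not tested. The changes of Efna3, Epha5 and Slit1 stayed below 0 throughout, at -0.98 to -0.66, -0.58 to -0.42 and -0.40 to -0.33. Scaling moved the median change of all genes between 0.00 and 0.01.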

Other observations

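The protein-coding genes next to the called members were also read. Tecrl, the neighbour of Epha5 in RefSeq, rose by 0.39 (SE 0.07, adjusted p = 0.0112 by limma) where Epha5 fell, and Arhgap19, next to Slit1, was at 0.26 (adjusted p = 0.256 by limma). Next to members called with the block, Pros1 and Csnka2ip (beside Epha3) were at 0.21 and -0.04, Pank3 and Spdl1 (beside Slit3) at 0.19 and 0.05, Bmpr1b and Pdha2 (beside Unc5c) at 0.12 and 0.07, and Mbd2 and Mex3c (beside Dcc) at -0.06 and -0.01. None of these 8 passed by limma. The other neighbours of Epha5 and Slit1 were not measured. Robo3 and Robo4, which lie next to each other, were at -0.02 and 0.20, and their log2 ratio overlapped between genotypes. These neighbours were named after their values were seen.

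Other cell types of the dissected tissue gave few calls in the fit without the replicate block. By limma, 0 of 8 sustentacular cell genes passed (median -0.06), 0 of 6 horizontal basal cell genes (-0.19), 0 of 6 ensheathing glia genes (0.03), 0 of 8 cartilage and bone genes (0.05), 0 of 7 smooth muscle and pericyte genes (0.13), 0 of 7 myeloid genes (0.12), 0 of 6 motile cilia genes (0.03) and 0 of 8 skeletal muscle genes (0.49). Of 10 genes of brain and olfactory bulb neurons 2 fell (20%, against 3.24% of all genes), Slc17a6 (-0.70) and Cdhr1 (-0.55), with a list median of -0.09. Gad2 of the same list lay the other way, at 0.35, and did not pass (adjusted p = 0.0801 by limma). With the replicate block Gad2 passed (adjusted p = 0.037 by limma). The source of these changes was not tested.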
